A study of Mus musculus with 30 samples.

Results

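miR-124 is a microRNA that the mouse genome encodes in 3 hairpins, Mir124a-1, Mir124a-2 and Mir124a-3. Reads were taken as miR-124 when their whole sequence matched a Mir124a hairpin of GENCODE M21 without a mismatch and in the sense direction, and they were given to the 5p or the 3p arm by the midpoint of the read. These 3 hairpins were 3 of 2202 miRNA hairpins searched. Over all libraries, 201 distinct sequences and 250715 reads met this rule, 53 of the sequences on the 3p arm and 148 on the 5p arm. Mir1247 and Mir1249 have symbols that begin with the same letters but are other miRNAs, and they were left out.

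The RNA came from the cortex of mice aged 6 months. WT mice were the littermates of hemizygous 5XFAD mice (AD mice), a transgenic model of Alzheimer disease, and both groups had a congenic C57BL/6J background and included both sexes. Small RNA of 15 to 50 nt was cut from a gel and sequenced either as it was (traditional-seq, 7 WT and 7 AD libraries) or after treatment with AlkB, which removes methyl groups from bases, and T4PNK, which turns cyclic and phosphate RNA ends into ends that adapters can be ligated to (PANDORA-seq, 8 WT and 8 AD libraries). The labels number the replicates, but they do not say which libraries of both protocols came from the same mouse, and p-values measure the spread between these libraries. The traditional-seq libraries held 9370669 to 17053412 reads and the PANDORA-seq libraries 54926347 to 105876141 reads, so 3 reads, the limit that a count of 0 allows, were worth at most 0.320 RPM (reads scaled to a library total of 1000000) in any traditional-seq library and 0.0546 RPM in any PANDORA-seq library.

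A miRNA hairpin is cut by Drosha and Dicer into a short duplex, and Argonaute keeps mostly 1 strand of it, the guide, while the other strand is degraded. For miR-124 the guide is the 3p arm, and the 5p arm is the passenger strand. Bases 2 to 8 of the guide, the seed, pair with target mRNAs, so a guide that starts 1 base earlier or later presents a shifted seed. miR-124 is a neuronal miRNA that represses mRNAs of non-neuronal genes, such as the splicing factor Ptbp1 and the REST cofactor Ctdsp1, and bulk cortex also holds glia, vessels and blood. In bulk samples, fewer neurons and less miR-124 per neuron cannot be told apart.

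For comparison, other neuronal miRNAs were read in the same libraries, and the mature sequences of 4 of them, whose read lengths and levels are set beside those of miR-124-3p, are shown here with their seeds in capitals (RefSeq, GRCm38.p6). They come from Mir128-1 (chr1:128202404-128202424), Mir9-1 (chr3:88215613-88215635), Mir218-1 (chr5:48223966-48223986) and Mir132 (chr11:75173723-75173744), all on the plus strand. Their 4 seeds differ from each other.
mmu-miR-128-3p: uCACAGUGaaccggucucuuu
mmu-miR-9-5p: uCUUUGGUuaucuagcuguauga
mmu-miR-218-5p: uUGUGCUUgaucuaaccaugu
mmu-miR-132-3p: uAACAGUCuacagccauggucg
miR-124 itself is described by where its reads start and how long they are.

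The 3 hairpins could hardly be told apart. Mir124a-1 (ENSMUSG00000065597.1) is on chromosome 14 from 64590657 to 64590741 on the plus strand (GRCm38), within an exon of its non-coding host gene Mir124a-1hg. Mir124a-2 (ENSMUSG00000093073.1), on chromosome 3 from 17795662 to 17795770 on the plus strand, lies in the host gene Mir124-2hg and overlaps the edge of an exon. Mir124a-3 (ENSMUSG00000065454.2) is on chromosome 2 from 180894040 to 180894107 on the plus strand, where it overlaps an exon of the gene Gm27032. Reads of sequences that all 3 hairpins share made up 99.4% of the miR-124 reads. Sequences found in a single hairpin gave 987 reads in all, 707 of them from Mir124a-1, 109 from Mir124a-2 and 171 from Mir124a-3. Of the reads that only Mir124a-1 could have given, 686 were from PANDORA-seq and 21 from traditional-seq, while for Mir124a-2 the numbers were 34 and 75. These are raw counts summed over 16 PANDORA-seq and 14 traditional-seq libraries. The PANDORA-seq libraries were several times deeper, so the counts do not compare levels. The mature guide forms are common to all 3 hairpins, so these reads give no measure of how much guide each hairpin makes. None of the 201 sequences matched another miRNA hairpin, and 3 of them, with 6 reads in all, also matched another transcript.

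miR-124-3p, the guide strand, was among the more read arms in these libraries, below leading arms such as miR-128-3p. Shares of the same arm differed between protocols, so the ranks order reads and not amounts in the tissue. In traditional-seq it took rank 45 to 113, in libraries where 899 to 1179 arms had reads, and in PANDORA-seq rank 25 to 56, where 1263 to 2026 arms had reads. Both arms together held a median of 0.0794% (lowest 0.0367%, highest 0.199%) of the miRNA reads in traditional-seq, and a median of 0.455% (lowest 0.267%, highest 1.04%) in PANDORA-seq, and the protocols did not overlap. miR-128-3p, a neuronal miRNA that restrains neuronal excitability, took 24.9% ± 9.31 (SD, n = 14) of the miRNA reads in traditional-seq and 7.83% ± 2.69 (SD, n = 16) in PANDORA-seq. miR-9-5p, a regulator of neural progenitors, took 8.39% ± 2.49 (SD, n = 14) and 6.53% ± 2.22 (SD, n = 16). The arms next to miR-124-3p in traditional-seq were miR-136-3p, miR-212-5p and miR-148b-3p above it and miR-300-3p, miR-140-3p and miR-382-5p below it, with means from 0.0809% to 0.0905% against 0.0863% ± 0.0473 (SD, n = 14) for miR-124-3p. Each of these 6 neighbours was above miR-124-3p in 7 to 10 of the 14 libraries, so their order was within the spread. In PANDORA-seq the neighbours were miR-744-5p, miR-6240-3p and miR-99a-5p above and miR-204-5p, miR-122-5p and miR-382-5p below, with means from 0.363% to 0.571% against 0.483% ± 0.187 (SD, n = 16). Of these, miR-744-5p was above miR-124-3p in 13 of 16 libraries, and the other five in 5 to 9.

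The share of reads and the share of miRNA reads placed miR-124-3p differently between protocols. Of all reads, miR-124-3p had 119 RPM in the lowest WT traditional-seq library, 308 in the median and 840 in the highest, and 137, 281 and 532 RPM in AD traditional-seq. In PANDORA-seq the lowest, median and highest WT libraries had 62.7, 99.1 and 155 RPM, and the AD libraries 65.9, 165 and 345 RPM. The ranges of the protocols overlapped, and 8 of 16 PANDORA-seq libraries were below every traditional-seq library. On the log2 RPM scale the mean was lower in PANDORA-seq by 1.37, a fold of 2.58 between geometric means (permutation test with 100000 shuffles, two-sided, p = 0.00011, adjusted p = 0.000448 over 75 comparisons of 15 measures). Within WT the fold was 3.66 (exact permutation test, adjusted p = 0.00146) and within AD it was 1.81, which did not pass after adjustment (exact permutation test, p = 0.035, adjusted p = 0.064, and unadjusted p from 0.0127 to 0.0776 without single libraries). As a share of miRNA reads, both arms together were higher in PANDORA-seq in 16 of 16 libraries, with a mean of 0.496% ± 0.189 (SD, n = 16) against 0.0940% ± 0.0499 (SD, n = 14) (permutation test, p = 1e-05, the smallest that 100000 shuffles allow, adjusted p = 7.5e-05). miRNA hairpins as a whole took 42.2% ± 5.67 (SD, n = 14) of the reads in traditional-seq and 2.87% ± 1.11 (SD, n = 16) in PANDORA-seq, and the 2 shares of miR-124 differ by that denominator. With only reads of 18 to 26 nt in the denominator, the log2 RPM of miR-124-3p was higher in PANDORA-seq by 1.19. All these values count exact matches only. Reads with 1 mismatch to a Mir124a hairpin averaged 2680 per library in traditional-seq, beside 4654 exact reads. In PANDORA-seq they averaged 1056, beside 11597 exact reads. The exact rule thus left out a larger part in traditional-seq, and the folds and their tests hold for exact matches.

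**Figure D1:**
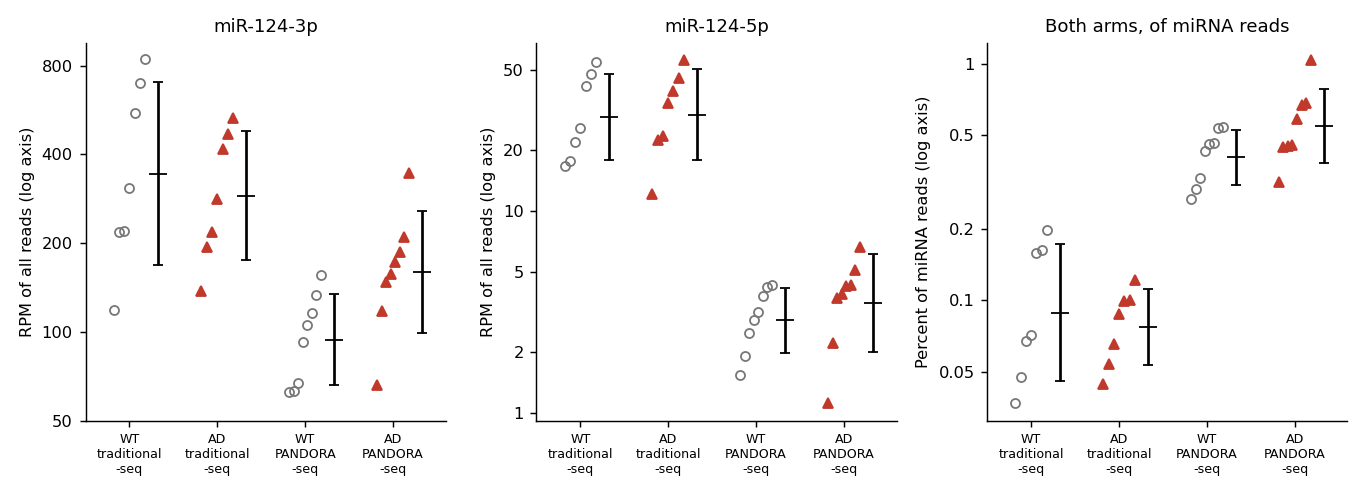
miR-124-3p and miR-124-5p in RPM of all reads, and both arms in percent of miRNA reads, on log axes, with a circle for each WT and a triangle for each AD library and the geometric mean with 1 SD of the log values beside them. miR-124-5p and the share of miRNA reads do not overlap between protocols, while miR-124-3p in RPM does.

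In RPM of all reads, the passenger strand was lower in PANDORA-seq by a larger fold than the guide. miR-124-5p had 16.6, 25.9 and 54.6 RPM in the lowest, median and highest WT traditional-seq libraries and 12.2, 34.3 and 55.9 RPM in AD. In PANDORA-seq it had 1.53, 3.02 and 4.27 RPM in WT and 1.11, 4.05 and 6.64 RPM in AD, so that all 16 PANDORA-seq libraries were below all 14 traditional-seq libraries. The fold between geometric means was 9.36 (permutation test with 100000 shuffles, adjusted p = 7.5e-05). miR-124-5p made up 8.86% ± 2.58 (SD, n = 14) of the reads of both arms in traditional-seq and 2.71% ± 1.02 (SD, n = 16) in PANDORA-seq, again without overlap (permutation test, adjusted p = 7.5e-05). Its rank among arms was 166 to 228 in traditional-seq and 181 to 265 in PANDORA-seq.

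With all reads of the hairpins counted and TMM normalization, the difference of the guide between protocols was near the median of all miRNA arms, and that of the passenger strand was below it. In a fit across arms with TMM normalization and genotype as a covariate, 589 of 749 arms tested, or 78.6%, were called between protocols (edgeR quasi-likelihood test with Benjamini-Hochberg adjustment, threshold 0.05, with at least a 2-fold difference), 377 higher and 212 lower in PANDORA-seq (222 higher and 405 lower without TMM), and the median log2 fold change of all arms was 1.06. miR-124-3p was among the called arms, with a log2 fold change of 1.17 ± 0.25 (SE) and an edgeR adjusted p of 5.73e-05, which is 0.11 above the median of all arms, within its SE, and 49.3% of arms had a larger value. Its place among the arms depended on the reads counted, with 1.001 against a median of 0.127 when only reads of 18 to 26 nt were kept, and 1.87 against 0.27 when only hairpins with Mir symbols were counted, an alternative chosen after seeing the data. With most arms called, nothing about miR-124-3p is read from its call. miR-124-5p had a log2 fold change of -0.63 ± 0.20 (SE) with an edgeR adjusted p of 0.00436, below a fold change of 2, and 1.69 below the median of all arms. Its share of the miRNA reads was 0.00771% ± 0.00321 (SD, n = 14) in traditional-seq and 0.0128% ± 0.00562 (SD, n = 16) in PANDORA-seq, so that on this scale its mean was higher in PANDORA-seq. Whether each arm was called depended on single libraries. Without WT PANDORA-seq replicate 1, 2 or 5, or AD PANDORA-seq replicate 5, 6 or 7, miR-124-3p was below a fold change of 2 (0.81, 0.75, 0.79, 0.76, 0.63 and 0.74 in that order) and miR-124-5p was called lower (-1.03, -1.04, -1.02, -1.11, -1.04 and -1.05), while the median of all arms was 0.53 to 0.54. The same held with the replicate block (0.87 for miR-124-3p, edgeR adjusted p = 0.00147, and -1.03 for miR-124-5p, edgeR adjusted p = 0.000625) and with libraries paired by file code (0.77 and -1.01, edgeR adjusted p = 0.0047 and 0.000178). Without TMM, with library totals as the scale, the log2 fold change of miR-124-3p was -1.49 (edgeR adjusted p = 1.34e-05) and that of miR-124-5p -3.25 (edgeR adjusted p = 1.26e-13), both called lower, and the median of all arms was -1.53. The direction for both arms between protocols therefore depended on the scale, while the share of miRNA reads held by miR-124 was higher in every PANDORA-seq library.

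miR-124-3p reads began at 2 neighbouring bases and at almost no other. The main start was base 53 of the Mir124a-1 hairpin, called position 0 here, and the second start was 1 base earlier, position -1. In traditional-seq, 71.6% ± 2.35 (SD, n = 14) of the 3p reads had the main start and 28.3% ± 2.37 the start at -1. In PANDORA-seq these shares were 59.6% ± 3.16 (SD, n = 16) and 40.0% ± 3.17. The share with the main start ranged from 68.2% to 75.9% in traditional-seq and from 53.9% to 64.0% in PANDORA-seq, so the protocols did not overlap, and the difference of -12.0 percentage points passed the test (permutation test, adjusted p = 7.5e-05). Both starts are of the same arm, but their seeds are shifted by 1 base, so the protocols gave different proportions of 2 guide forms. miR-124-5p started at base 14 of the hairpin in 93.4% ± 2.61 (SD, n = 14) and 91.8% ± 4.49 (SD, n = 16) of its reads (permutation test, p = 0.258, adjusted p = 0.395).

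The 3′ end of miR-124-3p lay 1 base earlier in PANDORA-seq than in traditional-seq. Counting the main start as base 1, 73.5% ± 6.57 (SD, n = 14) of the traditional-seq 3p reads ended at base 19 and 3.21% ± 0.59 at base 18. In PANDORA-seq 9.03% ± 2.61 (SD, n = 16) ended at base 19 and 57.7% ± 5.32 at base 18. In traditional-seq the 5 most read were the 19 nt form with the main start, 195 ± 111 RPM (SD, n = 14), the 20 nt form from -1 with 69.1 ± 34.8 RPM, the 20 nt form with the main start, 54.7 ± 45.03 RPM, the 21 nt form from -1, 13.9 ± 11.2 RPM, and the 21 nt form with the main start, 9.65 ± 8.32 RPM. In PANDORA-seq they were the 18 nt form with the main start, 54.0 ± 27.5 RPM (SD, n = 16), the 19 nt form from -1 with 25.0 ± 15.7 RPM, the 18 nt form from -1, 12.3 ± 8.90 RPM, the 17 nt form from -1, 12.0 ± 7.71 RPM, and the 17 nt form with the main start, 11.3 ± 7.05 RPM. The leading form of traditional-seq made up 53.9% of its 3p reads and 5.88% of those in PANDORA-seq, and the leading form of PANDORA-seq 39.8% and 1.52%.

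**Figure D2:**
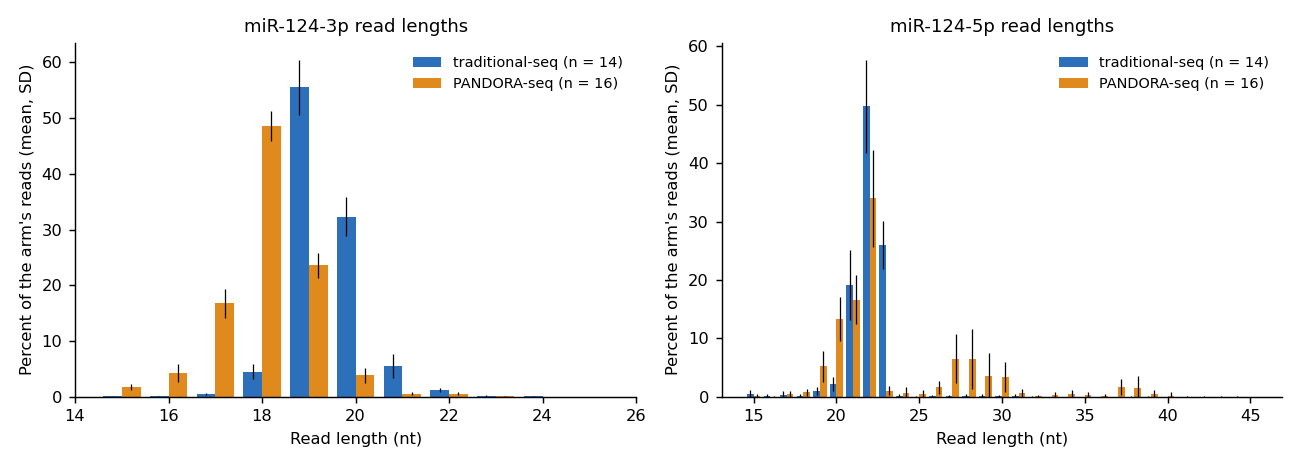
Share of the reads of each arm by read length, as the mean and SD over the 14 traditional-seq and 16 PANDORA-seq libraries. The 3p reads peak at 19 nt in traditional-seq and at 18 nt in PANDORA-seq, and the 5p reads peak at 22 nt in both, with further reads of 27 to 30 nt and of 37 to 38 nt in PANDORA-seq.

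The mean length of miR-124-3p reads was 19.4 nt ± 0.096 (SD, n = 14) in traditional-seq and 18.1 nt ± 0.11 (SD, n = 16) in PANDORA-seq. The difference was -1.37 nt (permutation test, adjusted p = 7.5e-05), with every PANDORA-seq library below every traditional-seq library, and it was -0.98 nt when only reads of 18 to 26 nt were kept. A shorter read in PANDORA-seq was the usual case for miRNA arms. Of 108 arms with at least 200 reads in every library, 99 were shorter in PANDORA-seq, with a median difference of -0.89 nt, and miR-124-3p was the 12th in the order from the most shortened. miR-128-3p differed by -1.14 nt, miR-9-5p by -0.94 nt, miR-132-3p, which neuronal activity induces, by -0.28 nt, and miR-218-5p, which is known from motor neurons, by 0.048 nt. miR-124-3p was thus beyond the median of all arms but within their range, and the differences among arms were not tested.

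**Figure D3:**
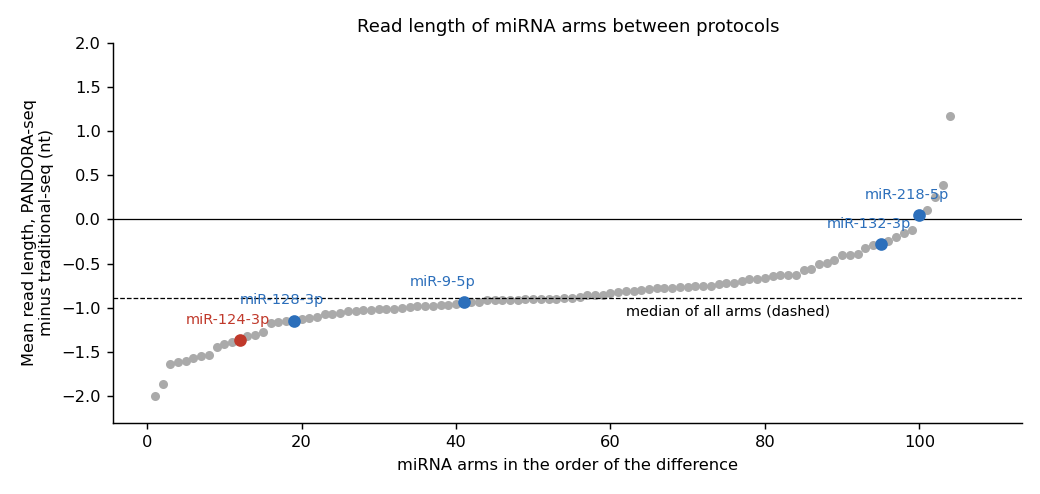
Mean read length in PANDORA-seq minus that in traditional-seq for 108 miRNA arms in the order of the difference, with miR-124-3p in red and 4 other neuronal arms in blue. miR-124-3p, at -1.37 nt, is below the median of -0.89 nt, and 4 arms above 2 nt, up to 10.8 nt, are outside the axis. These are Mir1843b-3p (3.01 nt) and the entries without a Mir symbol Gm47285|Gm47301-5p (5.39 nt), Snord43-3p (6.90 nt) and mmu-mir-5p (10.8 nt).

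Over all its reads miR-124-5p was longer in PANDORA-seq, while its reads of 18 to 26 nt were shorter. Its mean length was 21.99 nt ± 0.12 (SD, n = 14) in traditional-seq and 23.5 nt ± 1.07 (SD, n = 16) in PANDORA-seq (permutation test, adjusted p = 7.5e-05). The leading 5p form in both protocols was the 22 nt form from base 14, with 15.8 ± 6.83 RPM (SD, n = 14) and 1.14 ± 0.51 RPM (SD, n = 16). In traditional-seq the 23 nt and 21 nt forms with the same start followed, with 8.28 ± 3.93 and 5.99 ± 3.86 RPM (SD, n = 14). The 23 nt form made up 25.4% ± 3.91 (SD, n = 14) of the 5p reads in traditional-seq and 0.75% ± 0.60 (SD, n = 16) in PANDORA-seq. Among reads of 18 to 26 nt the mean 5p length was lower in PANDORA-seq, by 0.67 nt. Longer 5p reads were mostly found in PANDORA-seq. Reads of 27 to 30 nt made up 19.99% ± 13.1 (SD, n = 16) of the 5p reads in PANDORA-seq, 1017 reads in all, against 23 reads in all traditional-seq libraries. Of these 1017 reads, 93.7% began at the same base as the mature 5p arm and ran on past its 3′ end. Reads over 30 nt made up 5.83% ± 4.82 (SD, n = 16) of the 5p reads in PANDORA-seq and 0.183% ± 0.415 (SD, n = 14) in traditional-seq (permutation test, adjusted p = 7.5e-05), and 151 PANDORA-seq reads were 37 to 45 nt long. The 3p arm had 7 reads over 30 nt in all PANDORA-seq libraries and 0 among 59853 3p reads in traditional-seq.

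Many traditional-seq reads of miR-124-3p carried an added base at the 3′ end, and few PANDORA-seq reads did. These reads matched the 3p arm over at least 18 nt and had 1 further base that does not match the hairpin, so they are outside the exact counts above, and an added base and a misread last base cannot be told apart. An added base that equals the next base of the hairpin cannot be seen. In traditional-seq, 19.3% to 50.0% of the 3p reads of this kind had such a base, with a mean of 31.6% ± 10.4 (SD, n = 14), and in PANDORA-seq 1.90% to 3.93%, with a mean of 2.66% ± 0.61 (SD, n = 16). In traditional-seq the added base was mostly U (T in the reads). An added U was found in 23.7% ± 8.24 (SD, n = 14) of the traditional-seq reads and 1.38% ± 0.38 (SD, n = 16) of the PANDORA-seq reads (permutation test, adjusted p = 7.5e-05). An added A followed, with 7.30% ± 2.36 and 1.11% ± 0.56 (permutation test, adjusted p = 7.5e-05). In PANDORA-seq U and A were close. A was above U in AD replicate 1 (2.35% against 1.20%), replicate 6 (2.10% against 0.93%) and replicate 7 (2.07% against 1.34%), and below it in the other libraries. Added C and G were each under 0.5% on average in both protocols. Addition of U or A to miRNA 3′ ends is known from terminal nucleotidyltransferases.

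**Figure D4:**
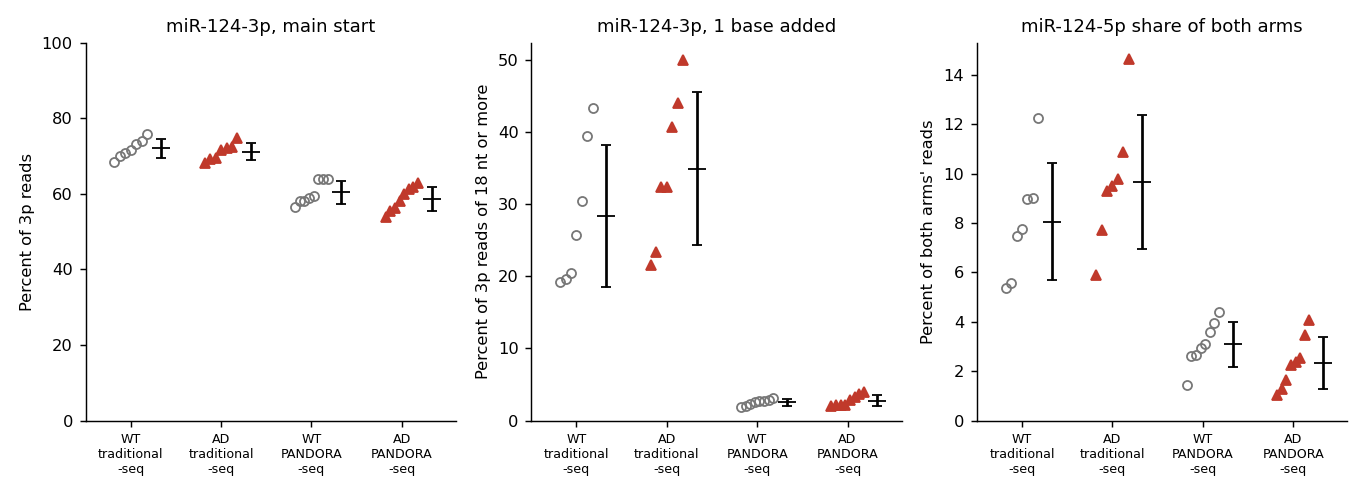
Percent of 3p reads with the main start, percent of 3p reads of 18 nt or more with 1 unmatched base added at the 3′ end, and the percent of both arms' reads that are 5p, for each library (circles WT, triangles AD) with the mean and SD beside them. The protocols do not overlap in any of the 3 panels, and WT and AD overlap in all of them.

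AD and WT libraries were then compared within each protocol. In traditional-seq no miR-124 measure differed between genotypes after adjustment. The AD libraries of miR-124-3p all lay within the range of the WT libraries, and the log2 fold change of AD over WT in the arm fit was -0.26 ± 0.33 (SE) for miR-124-3p and 0.17 ± 0.28 (SE) for miR-124-5p (edgeR quasi-likelihood test, adjusted p = 0.9996 for each). Of 510 arms tested, 0 were called (0%) by edgeR, with 9 (1.76%) at an unadjusted p under 0.05, and 0 by DESeq2.

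In PANDORA-seq the AD libraries had a higher RPM of miR-124-3p, and the difference was at the edge of the test. 5 of 8 AD libraries were above all WT libraries, and 1 AD library (65.9 RPM) was among the lowest WT libraries. The difference of the means was 0.76 on the log2 scale, a fold of 1.70 (exact permutation test, two-sided, p = 0.0247, adjusted p = 0.0475 over 75 comparisons). The 75 comparisons joined genotype and protocol comparisons, and the small p-values of the latter made this adjustment easier to pass. Genotype comparisons were not adjusted alone. With single libraries left out, the p-values were not adjusted, and only an unadjusted p under 0.05 was asked for. The difference did not reach that with AD replicate 6, the highest library, left out (0.60, exact permutation test, p = 0.0502). For both arms together (0.75, exact permutation test, p = 0.0258, adjusted p = 0.0484) it also did not without WT replicate 1 (0.67, exact permutation test, p = 0.0508) or WT replicate 5 (0.67, exact permutation test, p = 0.0511). Whether the other cases would pass after adjustment was not tested. miRNA hairpins as a whole took 2.50% ± 0.70 (SD, n = 8) of the reads in WT and 3.24% ± 1.35 (SD, n = 8) in AD. As a share of these miRNA reads, miR-124 had a mean of 0.414% ± 0.106 (SD, n = 8) in WT and 0.578% ± 0.223 (SD, n = 8) in AD (exact permutation test, p = 0.0639, adjusted p = 0.111). This difference lay between 0.0994 and 0.202 points without single libraries. Its unadjusted p was under 0.05 only without AD replicate 1 (exact permutation test, p = 0.0194) among these. In the arm fit the log2 fold change of miR-124-3p was 0.73 ± 0.25 (SE) with an unadjusted p of 0.00924 and an edgeR adjusted p of 0.321, and the adjusted p lay between 0.172 and 0.870 under 24 alternatives, so it was not called. Of 700 arms tested 1 was called (0.143%), lower in AD, and 84 (12%) had an unadjusted p under 0.05, among which miR-124-3p was the 20th. miR-124-5p had 0.30 ± 0.26 (SE, edgeR adjusted p = 0.693).

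The tested forms of miR-124 all had positive differences in PANDORA-seq, and edgeR without a replicate block called none. The 17 nt 3p form that starts 1 base after the main start had a log2 fold change of 1.79 ± 0.55 (SE, edgeR adjusted p = 0.206), and it was called by DESeq2 (1.83, adjusted p = 0.0367) and by edgeR with the replicate block (1.93, adjusted p = 0.00989). This form begins outside the main start and position -1, which together held almost all 3p reads. The block rests on replicate numbers, and it was not shown that these pair the libraries. Of all 3449 sequences tested, DESeq2 called 75, or 2.17% (17 higher and 58 lower in AD), and edgeR with the replicate block called 34, or 0.986% (1 higher and 33 lower). The 21 forms of miR-124 tested share libraries, 17 of them are of the 3p arm, and they are not independent. Of 21 miR-124 sequences tested in PANDORA-seq, edgeR without the block called 0, against 1.13% of all 3449 sequences tested. A log2 fold change above 0 was found for 21 of 21, with a median of 0.60, where 56.2% of all sequences were above 0 with a median of 0.07. An unadjusted p under 0.05 was found for 8 of the 21 and for 381 of all 3449 (11%), and the lowest edgeR adjusted p was 0.206. The 18 nt form with the main start had 0.66 ± 0.25 (SE, edgeR adjusted p = 0.354) and the 19 nt form from -1 had 0.82 ± 0.29 (SE, edgeR adjusted p = 0.310). In traditional-seq 14 miR-124 sequences were tested, 0 were called (0% of all 1925 tested) and 0 had an unadjusted p under 0.05 (1.04% of all), and 5 of 14 were above 0 with a median of -0.24, where 48.4% of all sequences were above 0 with a median of -0.011.

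**Figure D5:**
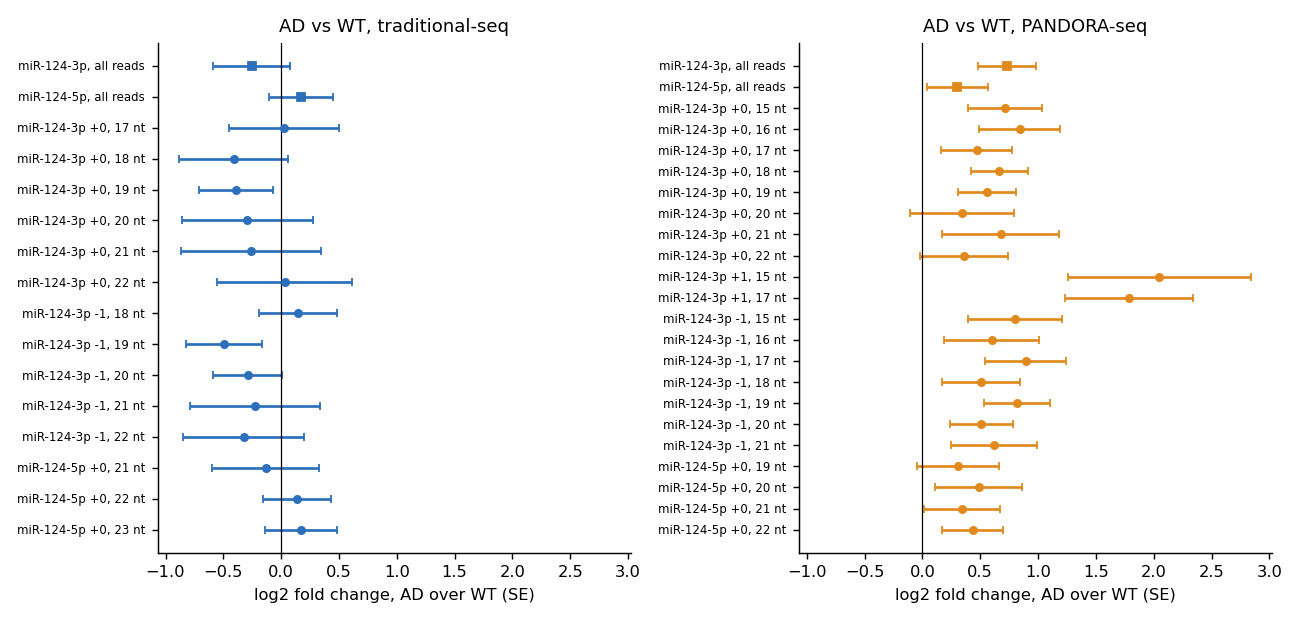
Log2 fold change of AD over WT with its SE for both arms (squares) and for each tested miR-124 sequence (circles), named by arm, start relative to the main start and length. All 21 sequences are above 0 in PANDORA-seq and 5 of 14 in traditional-seq. None was called in the edgeR fit that is plotted, and the 17 nt 3p form that starts 1 base after the main start was called in PANDORA-seq by DESeq2 and by edgeR with the replicate block.

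The genotype effect on miR-124-3p was not shown to differ between protocols. On the scale of log2 percent of miRNA reads, the change from WT to AD was 0.45 with PANDORA-seq and -0.22 with traditional-seq, and the difference of 0.67 did not pass a permutation of the genotype labels within each protocol (p = 0.168, 100000 draws). On the log2 RPM scale the changes were 0.76 and -0.25, and the difference of 1.01 did not pass either (permutation test, p = 0.0827). Without single libraries, the p on the scale of miRNA reads lay between 0.0549 (without WT traditional-seq replicate 6, where the difference was 0.90) and 0.318. The start, length and added bases of miR-124-3p did not pass the test between genotypes. The share of 3p reads with the main start differed by -1.71 percentage points in PANDORA-seq and -0.87 in traditional-seq (exact permutation tests, adjusted p = 0.415 and 0.647), the mean 3p length by -0.043 and 0.0069 nt (exact permutation tests, adjusted p = 0.606 and 0.981), and the share with an added U by -0.12 and 5.66 percentage points (exact permutation tests, adjusted p = 0.683 and 0.333). For miR-124-5p in PANDORA-seq, the mean length was 24.02 nt ± 1.18 (SD, n = 8) in WT and 23.03 nt ± 0.70 (SD, n = 8) in AD, a difference of -0.99 nt that did not pass (exact permutation test, p = 0.0608, adjusted p = 0.109). Its unadjusted p was under 0.05 without WT replicate 8 (-1.29 nt, exact permutation test, p = 0.00979) or AD replicate 5 (-1.19 nt, exact permutation test, p = 0.0274), and among reads of 18 to 26 nt the difference was -0.091 nt (exact permutation test, p = 0.650). The share of 5p reads in both arms differed by -0.75 percentage points (exact permutation test, p = 0.146, adjusted p = 0.243), and by -0.9996 without AD replicate 5 (exact permutation test, p = 0.0483). In traditional-seq, 5p reads over 30 nt were found in 4 of 7 AD libraries and in 0 of 7 WT libraries, a difference of 0.365 percentage points (exact permutation test, p = 0.0699, adjusted p = 0.119), and of 0.426 without AD replicate 3, 4 or 5, which had none (exact permutation test, p = 0.0210). Over all AD libraries these were only 7 reads of 31 to 36 nt and 2 reads of 37 to 45 nt.

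On the TMM scale, most other arms of miRNAs known from neurons were called lower in PANDORA-seq than in traditional-seq. The list held both arms of miR-9, miR-128, miR-137, miR-138, miR-218, miR-132, miR-212, miR-134, miR-153, miR-129 and miR-7, 22 arms in all, and they summed to 38.1% ± 8.73 (SD, n = 14) of the miRNA reads in traditional-seq and 19.5% ± 4.96 (SD, n = 16) in PANDORA-seq. Of 20 arms tested between protocols, 1 was called higher in PANDORA-seq and 14 lower, against 78.6% of all arms called and 28.3% called lower, and their median log2 fold change was -2.05 against 1.06 for all arms (edgeR). The counts moved with the scale, to 0 higher and 20 lower without TMM, where 54.1% of all arms were called lower with a median of -1.53. They were 4 and 14 with DESeq2 (25.4% of all arms lower), and 4 and 10 with hairpins with Mir symbols only (31.7% of 508 arms lower). As a share of the miRNA reads, 14 of the 22 arms had a lower mean in PANDORA-seq and 8 a higher mean, and this was not counted over all arms. For some arms called lower the shares hardly differed, as for miR-153-5p (0.00520% in traditional-seq and 0.00517% in PANDORA-seq), miR-138-5p (0.0241% and 0.0220%) and miR-212-5p (0.0893% and 0.0801%). miR-128-3p was called at -3.15 ± 0.21 (SE), miR-9-5p at -1.67 ± 0.19, miR-218-5p at -4.29 ± 0.31 and miR-132-3p at -2.63 ± 0.20 (edgeR quasi-likelihood test, adjusted p = 7.42e-16, 4.20e-10, 7.86e-15 and 4.85e-14). miR-138-3p, the passenger strand of miR-138, was the arm called higher, at 1.36 ± 0.25 (SE, edgeR adjusted p = 7.27e-06). miR-129-5p, with 0.471% ± 0.125 (SD, n = 14) of the miRNA reads in traditional-seq and 1.94% ± 0.69 (SD, n = 16) in PANDORA-seq, had 0.72 ± 0.17 (SE, edgeR adjusted p = 0.00021), under a fold change of 2. The remaining arms called lower were the 3p arms of miR-9, miR-137, miR-212, miR-153, miR-129 and miR-7 and the 5p arms of miR-138, miR-132, miR-212 and miR-153, from -1.38 (miR-153-5p) to -7.82 (miR-153-3p). Not called were miR-128-5p (0.90), miR-137-5p (0.77), miR-134-5p (0.26) and miR-7-5p (-0.74, with a share of 1.71% in traditional-seq and 2.58% in PANDORA-seq), and miR-218-3p and miR-134-3p were too low to test. A low place was not particular to the neuronal list. Among the lists of other cell types described below, the medians were -1.20 (oligodendrocyte), -0.89 (immune), -1.25 (vascular), -0.95 (muscle) and 0.55 (erythroid). In that order 2 of 4, 2 of 4, 3 of 6, 1 of 3 and 1 of 3 arms were called lower, and 0 higher. The liver arm miR-122-5p was called higher, at 2.06.

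Between genotypes the neuronal list gave no call. In PANDORA-seq 0 of 18 tested arms were called (0.143% of all arms), 8 were above 0 (55% of all arms), and the median log2 fold change was -0.18 against 0.06 for all arms. In traditional-seq 0 of 20 were called (0% of all arms), 7 were above 0 (53.5% of all arms), and the median was -0.15 against 0.03. miR-9-3p, the less read arm of miR-9, had the highest value in PANDORA-seq (1.31 ± 0.50, SE, edgeR adjusted p = 0.324) and miR-132-5p the lowest (-0.97 ± 0.36, SE, edgeR adjusted p = 0.321). miR-128-3p had -0.43 ± 0.19 (SE, edgeR adjusted p = 0.388).

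miRNAs known from other cell types were read in PANDORA-seq, some at shares of the miRNA reads like that of miR-124-3p. Between genotypes edgeR called none of their tested arms there, where it called 0.143% of all arms. Oligodendrocyte miRNAs (miR-219a and miR-338, 4 arms) summed to 0.119% to 0.402% of the miRNA reads in WT and 0.104% to 0.349% in AD, and 0 of 3 arms tested were called. Immune miRNAs (miR-142, miR-146a, miR-155 and miR-223, 8 arms, of which miR-155-3p had 0 reads in PANDORA-seq) summed to 0.0262% to 0.0794% in WT and 0.00938% to 0.0763% in AD, with 0 of 4 called. Vascular miRNAs (miR-126a, miR-143 and miR-145a, 6 arms) summed to 0.189% to 0.657% in WT and 0.114% to 1.45% in AD, with 0 of 6 called. Erythroid miRNAs (miR-451a and miR-144, 4 arms, miR-451a-3p with 0 reads in PANDORA-seq) summed to 0.0197% to 0.0901% and 0.0140% to 0.0490%, with 0 of 3 called. The liver miRNA miR-122 was at 0.177% to 0.691% in WT and 0.171% to 0.766% in AD. Muscle miRNAs (miR-1a, miR-133a and miR-206, 5 arms) summed to 0.00868% to 0.0340% in WT and 0.00795% to 0.347% in AD, where miR-206-3p had a log2 fold change of 4.37 ± 1.11 (SE, edgeR adjusted p = 0.211). In traditional-seq 0 arms of these lists were called between genotypes (0% of all arms). The oligodendrocyte arms had a median log2 fold change of 0.46 there and the immune arms of 1.20, against 0.03 for all arms. The tested liver arm also had 1.20, and the vascular, erythroid and muscle medians were -0.021, -0.32 and -0.042. An unadjusted edgeR p under 0.05 was found in traditional-seq for 3 of 4 immune arms and for 9 of all 510 arms (1.76%). In PANDORA-seq the oligodendrocyte and immune medians were 0.32 and 0.13, against 0.06 for all arms. None of the tested immune arms had an unadjusted edgeR p under 0.05 in PANDORA-seq, where 12% of all arms did. The part of these cells in the miR-124 values was not tested.

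Across the libraries of a protocol, the arms whose levels ran most like miR-124-3p were not the same in the 2 protocols. Over 14 traditional-seq libraries they were miR-191-5p (Spearman's rho 0.93), miR-30b-5p (0.89), miR-340-5p (0.87) and miR-376b-5p (0.85) of 181 arms with a mean of at least 100 CPM, whose median rho was -0.20. Over 16 PANDORA-seq libraries they were miR-30c-5p (0.86), miR-181a-5p (0.85), miR-9-3p (0.79) and the 5p sequences that let-7a and let-7c share (0.79) of 250 arms, whose median rho was 0.034. miR-124-5p took place 35 there, with a rho of 0.40. The points share library, depth and normalization, and these values are a description.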

How the data were processed

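Small RNA of mouse cortex was sequenced in 30 libraries, and the authors deposited for each library the raw read counts of distinct adapter-trimmed sequences, 15 to 45 nt long in PANDORA-seq and up to 42 nt in traditional-seq, without annotation. The labels name the build mm39, and the study annotated its reads with SPORTS1.1, whose output was not used here. Sequences were matched whole, exactly and in sense to GENCODE M21 (GRCm38) miRNA hairpins, with arms by read midpoint and hairpin copies of 1 miRNA joined (miR-7a is Mir7 and miR-146a Mir146 in this naming). The hairpins are all transcripts that GENCODE types as miRNA, and some of them, such as Snord43, have no Mir symbol.

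Single measures were compared by two-sided permutation tests (exact within a protocol or a genotype, 100000 shuffles with seed 20 otherwise; Python 3.11.15, scipy 1.17.1), with Benjamini-Hochberg adjustment over 75 comparisons. Read counts per arm and per sequence, filtered with filterByExpr (minimum count 10, total 15) and TMM normalized, were fitted by the quasi-likelihood method of edgeR 4.0.16 (R 4.3.3), and calls needed both a Benjamini-Hochberg value below 0.05 and a 2-fold difference. The code was tested on simulated data. DESeq2 1.42.0, the likelihood ratio test, other scalings, filters, length windows and pairings, and leaving out each library were tried as alternatives. Reads carry no molecular identifiers, so limits from 3 reads cover counting error only. The members, lists and rules were chosen with earlier results of these data known. Named were the hairpins, both arms, up to 5 sequences for each arm and protocol with a mean of at least 1 RPM, called sequences, the 3 arms above and below miR-124-3p by share of miRNA reads, the 4 arms most correlated with it and the neuronal list. The 18 nt form with the main start and the 19 nt form from -1 were named under the same rule in the genotype comparison, and miR-206-3p was named after its values were seen.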

Additional observations from a re-analysis of the deposited data

Results flagged for a closer look

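In 60 sets of 1 measure in 1 group, 8 held a highest or lowest library that stood apart from the rest of its group by Dixon's test. The test flags about 1 set in 20 by chance. This rate does not hold where most or all libraries are at 0, as for 3p reads over 30 nt. WT traditional-seq replicate 6 had the lowest share of 5p reads with the main start, 88.7%, where the next library had 93.2%, and WT PANDORA-seq replicate 7 had 77.7%, where the next library had 90.3%. Over 30 nt, 3p reads were seen in a single library of each PANDORA-seq group, at 0.0776% in WT replicate 1 and 0.0195% in AD replicate 7, and 5p reads were at 1.53% in AD traditional-seq replicate 7. AD traditional-seq replicate 2 had the highest share of 3p reads with an added A, 13.5%, and with an added G, 1.55%, and WT traditional-seq replicate 4 had an added G in 0.770%.

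Reads antisense to the Mir124a hairpins, which enter no comparison above, numbered 345 in all, with up to 41 in a library (lowest 0). In traditional-seq there were 311, a mean of 1.86 RPM ± 0.96 (SD, n = 14), and in PANDORA-seq 34, of which 30 lay opposite the 5p arm. All 311 traditional-seq reads lay opposite the 5p arm, 180 of them were 22 nt long, 78 matched all 3 hairpins, 28 matched Mir124a-1 and Mir124a-2, and the rest matched Mir124a-3 alone.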

How the results depend on the processing

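Between protocols, the scale decided the direction of miR-124 levels. With reads of 18 to 26 nt as the denominator, the log2 RPM of all miR-124 reads was higher in PANDORA-seq by 1.09 (0.71 in WT, 1.47 in AD) and that of miR-124-3p by 1.19 (0.79 in WT, 1.59 in AD). Without TMM the log2 fold changes of miR-124-3p and miR-124-5p were -1.49 and -3.25. Without 1 of 6 PANDORA-seq libraries, and with the replicate block or libraries paired by file code, miR-124-3p was no longer called higher and miR-124-5p was called lower. miR-124-5p had -0.28 with DESeq2 (adjusted p = 0.136) and 0.068 when only hairpins with Mir symbols were counted, an alternative chosen after seeing the data. The cause was not tested. Arms called between protocols numbered 1974 without a filter, when more arms were tested, and 376 with Mir symbols only, when fewer were. Among reads of 18 to 26 nt the mean 5p length differed by -0.67 nt (-0.61 in WT, -0.73 in AD), which leaves out the longer 5p reads by construction. Counting Mir1247 and Mir1249 too, also chosen after seeing the data, added at most 25.7% to the miR-124 reads of a library.

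Between genotypes in PANDORA-seq, the log2 RPM of all miR-124 reads kept its direction but not its side of the threshold with reads of 18 to 26 nt as the denominator (0.54, exact permutation p = 0.0591) and with the replicate block (0.75, exact permutation p = 0.0781), and it lay between 0.59 and 0.93 without single libraries. The difference in percent of miRNA reads was 0.187 points (exact permutation p = 0.0443) when reads with 1 mismatch were added for miR-124 only. All other hairpins were still counted by exact matches, so this is not a share at 1 mismatch. AD replicate 1 had the most such reads, 2735 beside 10602 exact reads. With exact matches the difference lay between 0.0994 and 0.202 points without single libraries, passing without AD replicate 1 (exact permutation p = 0.0194). PANDORA-seq arms called numbered 4 with the likelihood ratio test, 3 with DESeq2, 38 without a filter, 0 without TMM, 0 with 18 to 26 nt, 0 with the replicate block and 0 to 2 without single libraries, and 1 traditional-seq arm was called without a filter. miR-124-3p was in none of these calls between genotypes. DESeq2 and the replicate block each called 1 miR-124 sequence, the 17 nt 3p form that starts 1 base after the main start (log2 fold change 1.83 and 1.93, adjusted p = 0.0367 and 0.00989), where they called 2.17% and 0.986% of all sequences tested.

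Differences that did not pass the test changed sign in some alternatives. Without single libraries, AD minus WT in traditional-seq ranged from -0.11 to 0.26 for log2 RPM of miR-124-5p, -1.19 to 0.46 points for the 5p main start (0.69 with 18 to 26 nt), -0.026 to 0.028 nt for the mean 3p length, -0.171 to 1.47 points for an added A and -0.0208 to 0.0408 for an added C and -0.0359 to 0.203 for an added G. The mean 5p length differed by 0.027 nt with 18 to 26 nt. In PANDORA-seq the range was -0.0097 to 0.0024 points for 3p reads over 30 nt and -0.0023 to 0.0081 for an added C and -0.0103 to 0.0357 for an added G. Between protocols in AD, the 5p main start ranged from -1.25 to 0.19 points.

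It was not shown that replicate numbers pair the libraries. The correlations given next were not set against those of differently numbered libraries, so they cannot decide it. Deviations from the group means correlated from -0.52 to 0.44 between same-numbered WT and AD libraries in PANDORA-seq and from -0.41 to 0.43 in traditional-seq, and from -0.13 to 0.35 between libraries with 1 file code in both protocols. At the depth of PANDORA-seq, miR-124-5p had 61 to 549 reads in a library, which limits the precision of its length and start shares.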
